A study of Rattus norvegicus and Sus scrofa and Bos taurus with 188 samples.

Results

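The genes described here encode the enzymes that remove superoxide and peroxides: the peroxiredoxins PRDX1, PRDX2, PRDX3, PRDX5 and PRDX6, the superoxide dismutases SOD1 and SOD2, catalase (CAT) and the glutathione peroxidases GPX1 and GPX4. They were chosen by name, with earlier results of these data known. Of the 10 listed symbols 9 had a row in the expression table, out of 15877 gene names in all. PRDX1 had no row under that name and is not analysed here. The embryos were pig (Sus scrofa) morulae of 1 group with 4 Smart-seq2 libraries. Smart-seq2 is a method that copies polyadenylated RNA from very small samples into full-length cDNA. The titles of these libraries carry the mark PG, which the labels of earlier and later stages in the series spell out as parthenogenetically activated, so these embryos arose from activated eggs with no sperm. The labels of the morula libraries themselves give the stage only, and they name no breed, culture condition or number of embryos. The series as a whole compares epigenetic reprogramming in gametes and early embryos of several mammals, and no other of its samples was analysed here.

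Superoxide leaks mainly from the respiratory chain. Superoxide dismutases turn it into hydrogen peroxide, which catalase, peroxiredoxins and glutathione peroxidases then reduce to water. Peroxiredoxins use a reactive cysteine that is mostly restored by thioredoxin, which in turn draws electrons from NADPH through thioredoxin reductase. Glutathione peroxidases use selenocysteine or cysteine and draw electrons from glutathione. In cultured mammalian embryos these enzymes are studied because oxygen in culture is usually higher than in the oviduct.

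The authors merged the 4 libraries into 1 column of FPKM values, that is, fragment numbers divided by the length of the transcript and by the size of the library. Levels of different genes can therefore be set side by side per length. There is 1 value per transcript, with no replicate spread, no SD and no test, and the sequencing depth is unknown, so no difference below is shown to exceed replicate error. Each gene is given by its highest transcript row, and its rows summed are given too for the 9 genes and for partner genes whose value they move by over 1.5 times. Since each value comes from whole embryos, fewer cells that express a gene and less RNA per cell cannot be told apart.

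Marker genes were read beside the labelled stage. With no other stage analysed here, they cannot tell a morula from another stage. All 10 embryo markers with a row stood at 1 FPKM or more, a level that 48.8% of all genes reached. TFAP2C at 194 FPKM, KLF17 at 85.9 FPKM and ZFP42 at 49.9 FPKM were the highest. SOX2 at 5.36 FPKM, GATA3 at 3.16 FPKM and LIN28A at 1.83 FPKM were the lowest. Oocyte transcripts were present as well, in 8 of 9 cases, led by OOSP2 at 179 FPKM, H1FOO at 90.3 FPKM and WEE2 at 65.1 FPKM, while FIGLA was listed at 0. Of 11 markers of cumulus and granulosa cells, which surround the egg, 1 reached 1 FPKM, namely FST at 16.9 FPKM. The next were CYP19A1 at 0.835 FPKM (1.06 FPKM summed) and STAR at 0.300 FPKM, and 3 were listed at 0. Among 7 blood cell markers CD14 (2.38 FPKM) and CD68 (1.32 FPKM) reached 1 FPKM and the globin gene HBB stood at 0.302 FPKM. Among 8 fibroblast markers THY1 did, at 1.83 FPKM, followed by PDGFRA at 0.669 FPKM and DCN at 0.597 FPKM. The summed levels were 506 FPKM for the embryo list, 416 FPKM for the oocyte list, 18.3 FPKM for the cumulus list, 4.58 FPKM for the blood list and 3.24 FPKM for the fibroblast list. The part of such cells, and of RNA kept from the egg, in the levels below was not tested.

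All 9 genes stood at 1 FPKM or more, a level that 48.8% of all genes reached, or 50.6% with the rows of each gene summed. At 10 FPKM or more stood 8 of the 9, against 20.2% of all genes, and at 100 FPKM or more 2 of the 9, against 3.14%. Their median level was 18.6 FPKM, where all genes had a median of 0.916 FPKM and genes at 1 FPKM or more a median of 6.89 FPKM. The lowest of the 9, PRDX2, lay above the latter median. Together their highest rows made up 0.167% of the FPKM total of the table, or 0.178% with all rows summed. Because the genes were chosen with earlier results of these data known, these comparisons describe the 9 genes and test nothing. The 8 other listed genes of these families reached 1 FPKM in 5 cases (62.5%), with a median of 1.75 FPKM.

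The levels fell into an upper and a lower block. The upper block held 4 genes between 85.6 and 156 FPKM: PRDX6, PRDX5, SOD1 and PRDX3. The lower block held 5 genes between 7.65 and 18.6 FPKM: CAT, GPX4, SOD2, GPX1 and PRDX2. The step between the blocks, from PRDX3 down to CAT, was 4.59-fold, whereas every other pair of neighbours in the order differed by 1.06- to 1.48-fold. The division was placed at this largest step between neighbours. With no replicate spread, neither the order within a block nor the step between the blocks can be told from chance variation between libraries. With rows summed the step narrowed to 2.62-fold, from PRDX3 to GPX4, and the same genes lay on each side of it.

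**Figure D1:**
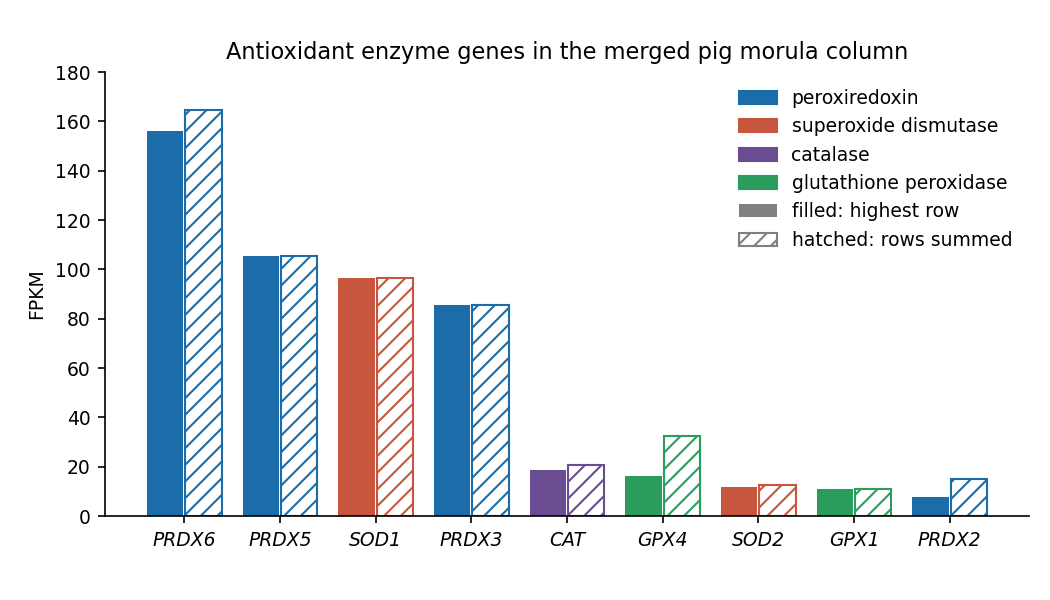
FPKM of the 9 genes in the merged morula column, in order of the highest transcript row (filled bars) with all rows summed beside it (hatched bars), coloured by family. The first 4 genes lie between 85.6 and 156 FPKM by the highest row and the other 5 between 7.65 and 18.6 FPKM, with GPX4 and PRDX2 showing the widest gap between the bars in proportion to their height. There are no error bars because the 4 libraries share 1 column.

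**Figure D2:**
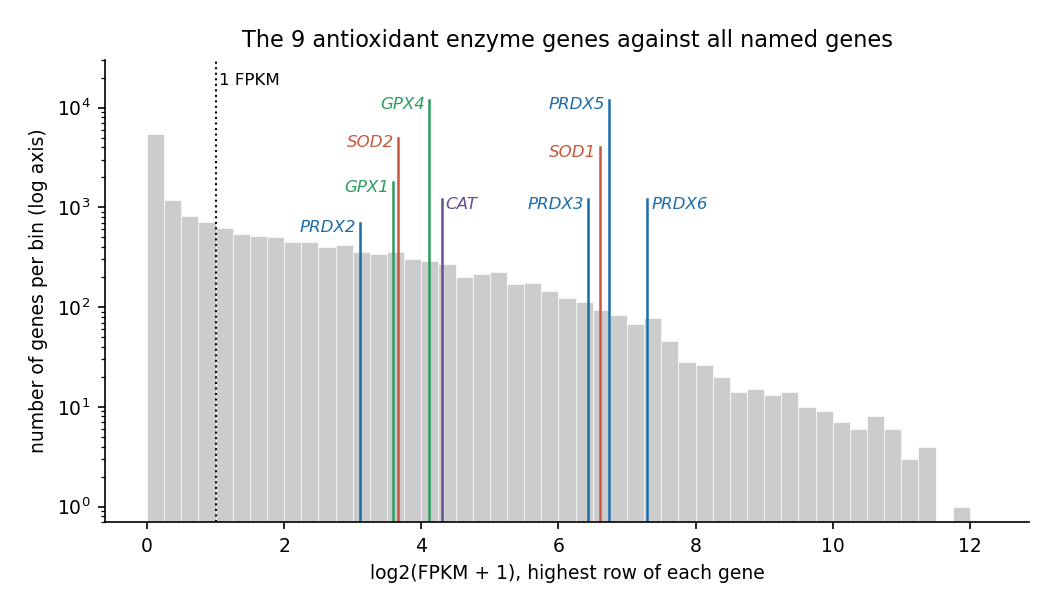
Number of genes (log axis) by log2(FPKM + 1) of the highest row for all 15877 gene names, with a line for each of the 9 genes and a dotted line at 1 FPKM. PRDX2 is leftmost, at the 76.8 percentile of all genes, and PRDX6 rightmost, at the 98.1 percentile.

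Among the 4 listed peroxiredoxins with a row, PRDX6 was highest. This enzyme draws electrons from glutathione rather than from thioredoxin and also acts on phospholipids. Its transcript ENSSSCT00000045929.1 stood at 156 FPKM and the transcript ENSSSCT00000028213.2 at 8.39 FPKM, together 164 FPKM. That placed PRDX6 below 298 other genes of the table, at the 98.1 percentile. PRDX5, which is found in mitochondria, peroxisomes and cytosol and also reduces peroxynitrite, had 1 row (ENSSSCT00000014243.3) at 105 FPKM, at the 97.1 percentile. PRDX3, the peroxiredoxin of the mitochondrial matrix, had 1 row (ENSSSCT00000011683.3) at 85.6 FPKM, at the 96.3 percentile.

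PRDX2, an abundant cytosolic peroxiredoxin of red blood cells and neurons, was the lowest of the 9 genes. Its 4 rows stood at 7.65 FPKM (ENSSSCT00000015010.3), 6.59 FPKM (ENSSSCT00000050987.1), 0.609 FPKM (ENSSSCT00000054827.1) and 2.25e-16 FPKM (ENSSSCT00000056546.1). The last of these is a value of a fitted assignment of reads and amounts to none. The sum was 14.9 FPKM, so PRDX2 moved from the ninth place to the seventh when rows were summed. By the highest row PRDX6 was 20.4-fold above PRDX2 per length, and 11.1-fold above it with rows summed. PRDX3 was 11.2-fold above PRDX2 by the highest row and 5.76-fold with rows summed. In this comparison the ratio therefore turned on how the transcripts of PRDX2 were counted.

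The other peroxiredoxin with a row, PRDX4, is the enzyme of the endoplasmic reticulum, where it uses peroxide to help form disulfide bonds. It is not among the 10 listed genes. Its rows stood at 445 FPKM and 15.4 FPKM, so it was 2.85-fold above PRDX6, with 91 genes of the table above it. All 5 peroxiredoxin genes with a row were thus at 1 FPKM or more, against 48.8% of all genes. The 5 genes spanned a 58.2-fold range from PRDX2 to PRDX4.

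SOD1, the copper and zinc enzyme of the cytosol, had 1 row (ENSSSCT00000029514.2) at 96.3 FPKM, at the 96.8 percentile of all genes. SOD2, the manganese enzyme of the mitochondrial matrix, stood at 11.7 FPKM in ENSSSCT00000056447.1, at 0.966 FPKM in ENSSSCT00000039602.1 and at 0.000893 FPKM in ENSSSCT00000054351.1. SOD1 was therefore 8.26-fold above SOD2 per length, or 7.63-fold with rows summed. SOD3, the secreted enzyme, was at 0.0614 FPKM in 1 row and listed at 0 in the other. The cytosolic and mitochondrial enzymes were thus above 1 FPKM and the secreted one below it.

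CAT, the peroxisomal enzyme that breaks down hydrogen peroxide without an outside electron donor, stood at 18.6 FPKM in ENSSSCT00000014528.3, at 1.85 FPKM in ENSSSCT00000044995.1 and at 0.0454 FPKM in ENSSSCT00000049964.1. It was at the 86.6 percentile of all genes. PRDX6 was 8.37-fold and SOD1 5.17-fold above CAT per length.

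GPX4, the selenoprotein that reduces lipid peroxides in membranes, had rows of 16.3 FPKM each, ENSSSCT00000051893.1 and ENSSSCT00000022482.2. The lower one was 99.5% of the higher, and the sum was 32.6 FPKM. GPX4 is known to be made in cytosolic, mitochondrial and nuclear forms from alternative starts. Which form each row encodes was not analysed here. GPX1, the selenoprotein that reduces hydrogen peroxide in cytosol and mitochondria, had 1 row (ENSSSCT00000046306.1) at 11.0 FPKM. GPX4 was 1.48-fold above GPX1 by the highest row and 2.96-fold above it with rows summed.

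All other listed glutathione peroxidases had a row. GPX6 stood at 6.78 FPKM, GPX3, a secreted plasma enzyme, at 3.06 FPKM, GPX8, of the endoplasmic reticulum membrane, at 1.96 FPKM and GPX5, known from the epididymis, at 1.54 FPKM. GPX7, also of the endoplasmic reticulum, stood at 0.260 FPKM, and GPX2, known from gut epithelium, was listed at 0. Of 8 glutathione peroxidase genes 6 thus reached 1 FPKM, against 48.8% of all genes. The 8 genes had a median of 2.51 FPKM, and GPX4 and GPX1 were the highest. The GPX family contains close paralogues, and whether the authors' counting could share reads among them is not known here.

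The genes with several rows differed in how their level was split. Of the 9 genes 4 had 1 row and 5 had several. The highest row carried over 90% of the summed level in 3 of these 5 (PRDX6 94.9%, SOD2 92.3% and CAT 90.8%), a share that 36.6% of all genes with several rows and a sum of at least 1 FPKM exceeded. It carried less than 60% in the other two, PRDX2 (51.5%) and GPX4 (50.1%), as in 23.7% of all such genes. The split of all such genes had a median of 80.4% in the highest row. With rows summed 4 of the 9 genes kept their place in the order, and GPX4 passed CAT.

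**Figure D3:**
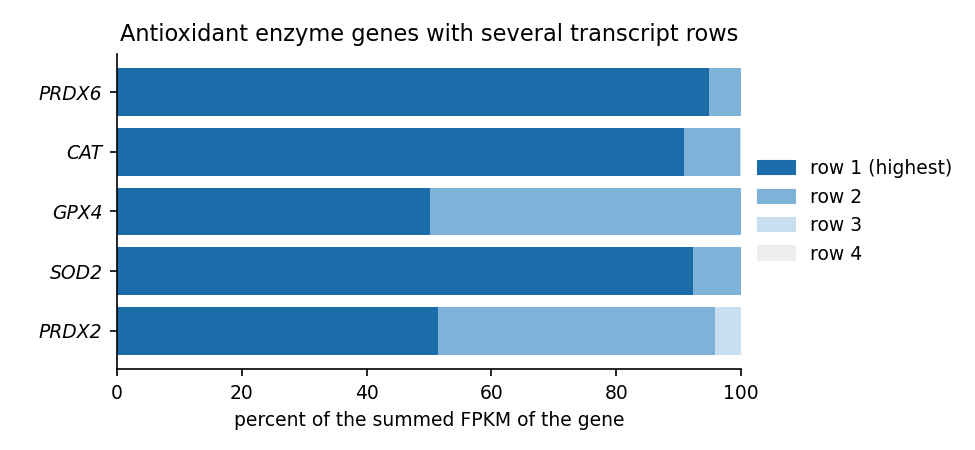
Percent of the summed FPKM of a gene in each of its transcript rows, for the 5 genes with several rows. PRDX6, CAT and SOD2 lie over 90% in the highest row, while PRDX2 and GPX4 are divided between rows of similar level.

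By site in the cell, the 4 genes of mainly cytosolic enzymes (PRDX6, SOD1, GPX1 and PRDX2) summed to 271 FPKM, or 287 FPKM with all rows. The 2 genes of mitochondrial matrix enzymes, PRDX3 and SOD2, summed to 97.3 FPKM, the 2 of several sites, PRDX5 and GPX4, to 122 FPKM (138 FPKM with all rows), and CAT of the peroxisome to 18.6 FPKM. By family, and with all rows, peroxiredoxins held 68.1% of the summed level of the 9 genes, superoxide dismutases 20.0%, glutathione peroxidases 8.03% and catalase 3.78%. These sums and shares depend on which genes were listed and had a row. PRDX1 had no row, and PRDX4, at 461 FPKM with rows summed, is not among the 9 genes. In the mitochondrion PRDX3 was 7.34-fold above SOD2.

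The thioredoxin system restores most peroxiredoxins. It was at 1 FPKM or more in 7 of 11 genes with a row (63.6%), against 48.8% of all genes. The list median was 1.96 FPKM. TXN, the cytosolic thioredoxin, had no row and is not analysed here. TXN2, the mitochondrial thioredoxin that serves PRDX3, stood at 131 FPKM (134 FPKM summed), 1.54-fold above PRDX3. TXNRD2, the mitochondrial thioredoxin reductase that recharges TXN2, stood at 0.209 FPKM over its 4 rows. PRDX3 was 410-fold and TXN2 630-fold above it per length. The TXNRD2 value lay below 1 FPKM and the sequencing depth is unknown, so the size of any ratio to TXNRD2 is uncertain. TXNRD1, the cytosolic reductase, stood at 38.9 FPKM, 187-fold above TXNRD2, and TXNRD3, known from testis, at 1.52 FPKM. The 3 genes of the mitochondrial chain thus lay on both sides of 1 FPKM, with the reductase the lowest.

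SRXN1, the sulfiredoxin that repairs overoxidised peroxiredoxins, stood at 3.53 FPKM. The sestrins, stress proteins linked to peroxiredoxin repair and growth signalling, were at 16.6 FPKM for SESN1 (21.1 FPKM summed), 1.96 FPKM for SESN2 and 0.136 FPKM for SESN3. TXNL1, a thioredoxin-like protein bound to the proteasome, was the highest of the list at 624 FPKM (665 FPKM summed). TXNIP, the thioredoxin inhibitor, stood at 0.863 FPKM and the nucleoredoxin gene NXN at 0.336 FPKM.

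Glutaredoxins reduce disulfides at the expense of glutathione and take part in iron-sulfur cluster assembly. All 3 with a row were above 10 FPKM, a level that 20.2% of all genes reached. GLRX5, of mitochondria, stood at 110 FPKM, GLRX3 at 75.5 FPKM (126 FPKM summed) and GLRX2 at 30.8 FPKM.

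Of the genes of glutathione synthesis and turnover 8 of 12 with a row reached 1 FPKM (66.7%), against 48.8% of all genes. The list median was 1.95 FPKM. The synthesis genes were close to one another: GSS, glutathione synthetase, at 12.8 FPKM, GCLM, the modifier subunit of the rate-limiting ligase, at 8.26 FPKM and GCLC, its catalytic subunit, at 5.49 FPKM. GCLC summed to 12.6 FPKM, above GCLM, so the order of the ligase subunits turned with the summing of rows. GSR, the reductase that recharges glutathione for GPX1 and GPX4, stood at 8.60 FPKM, with GPX1 1.28-fold and GPX4 1.90-fold above it, or 3.79-fold for GPX4 with rows summed. SLC25A39, which carries glutathione into mitochondria, stood at 7.38 FPKM (11.1 FPKM summed).

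Cystine import through SLC7A11 and SLC3A2 was at 0.995 and 1.26 FPKM, on either side of the threshold. Of the turnover genes GGT7 stood at 1.99 FPKM, CHAC1 at 1.91 FPKM, CHAC2 at 0.344 FPKM and GGT5 at 0.0546 FPKM, and OPLAH was listed at 0. The synthesis and reduction genes thus lay at 5.49 FPKM or more, and the cystine import and turnover genes at 1.99 FPKM or less.

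**Figure D4:**
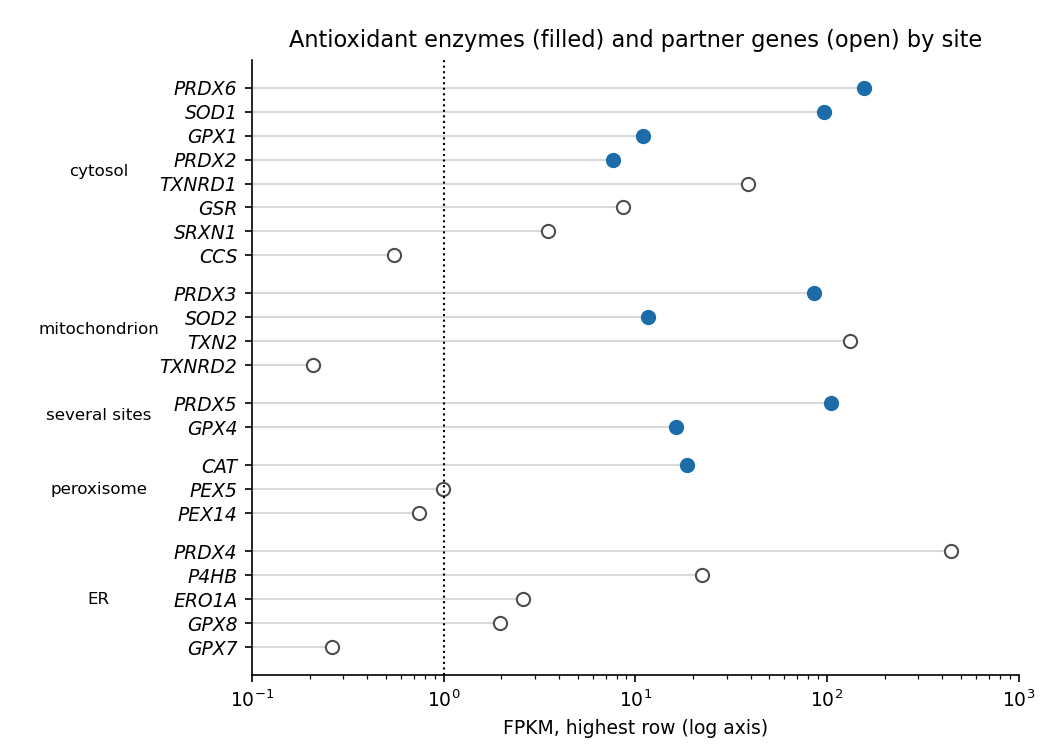
FPKM of the highest row (log axis) of the 9 genes (filled points) and of partner genes (open points), grouped by the main site of the protein, with a dotted line at 1 FPKM. TXNRD2 at 0.209 FPKM lies below PRDX3 and TXN2 in the mitochondrial group, CCS at 0.552 FPKM below SOD1 in the cytosolic group, and PRDX4 at 445 FPKM is the highest of the genes drawn, which leave out higher partners such as TXNL1.

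Several of the 9 enzymes need a cofactor or an import route. SOD1 receives its copper from the chaperone CCS, which stood at 0.552 FPKM in the highest of its 4 rows. SOD1 was therefore 174-fold above CCS per length. The CCS value lay at the 44.5 percentile of all genes, so the size of this ratio is uncertain too. The copper importer SLC31A1 was at 173 FPKM, and SOD1 stood at 0.556 of that level. CAT enters the peroxisome through the receptor PEX5 and the docking protein PEX14. CAT was 18.8-fold above PEX5, at 0.991 FPKM, and PEX14 stood at 0.744 FPKM. Of 13 peroxisome import and biogenesis genes reported here 10 were at 1 FPKM or more (76.9%), against 48.8% of all genes. The list median was 2.19 FPKM. PEX3 and PEX16, which bring membrane proteins to the peroxisome, were highest at 17.9 FPKM (27.3 FPKM summed) and 14.8 FPKM, before the docking protein gene PEX13 at 12.6 FPKM, and PEX6, an export ATPase, was at 0.379 FPKM.

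GPX1 and GPX4 carry selenocysteine, an amino acid inserted at a stop codon by its own machinery. Of 9 genes of selenocysteine synthesis and insertion 8 reached 1 FPKM (88.9%), against 48.8% of all genes. The list median was 7.50 FPKM. The seryl-tRNA synthetase gene SARS stood at 31.2 FPKM and TRNAU1AP, which binds the selenocysteine tRNA, at 15.2 FPKM. SECISBP2, which binds the insertion element in the mRNA, stood at 14.7 FPKM (24.7 FPKM summed). LRP8, a receptor for selenium uptake, was at 0.0149 FPKM. The list of other selenoproteins held 11 genes with a row and left out the thioredoxin reductases and further glutathione peroxidases. Of these 11 genes 8 were at 1 FPKM or more (72.7%), against 48.8% of all genes. By the highest row 7 of the 11 stood above both GPX4 and GPX1. With rows summed 4 stood above GPX4 and 7 above GPX1. The highest were SELENOT at 145 FPKM, SELENOF at 109 FPKM and SELENOS at 102 FPKM, all proteins of the endoplasmic reticulum. SELENOO (0.657 FPKM) and SELENOP (0.234 FPKM), the latter the selenium carrier of plasma, were below 1 FPKM, and SELENOV was listed at 0. The methionine sulfoxide reductases, which repair oxidised methionine, were at 18.6 FPKM for MSRB1 (27.8 FPKM summed), 1.26 FPKM for MSRB3 and 0.626 FPKM for MSRA.

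NADPH feeds both the thioredoxin and the glutathione branch. Of 12 genes of NADPH supply reported here 8 stood at 1 FPKM or more (66.7%), against 48.8% of all genes. The list median was 4.17 FPKM. The 3 highest genes of the list encode mitochondrial enzymes: IDH2 at 67.4 FPKM, MTHFD2 at 50.7 FPKM and ME2 at 26.0 FPKM (65.8 FPKM summed). NADK (0.816 FPKM, or 1.62 FPKM summed), ME3 (0.797 FPKM) and ALDH1L2 (0.436 FPKM) were below 1 FPKM by the highest row.

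Several of these genes are targets of the transcription factor NRF2, which KEAP1 holds back when oxidants are low. Of 19 genes of NRF2 regulation and further targets 13 reached 1 FPKM (68.4%), against 48.8% of all genes. The list median was 1.68 FPKM. BLVRB, a biliverdin reductase, stood highest at 202 FPKM, before the autophagy receptor SQSTM1 at 70.1 FPKM and RBX1, a subunit of the ligase that marks NRF2 for destruction, at 64.5 FPKM. OSGIN1 (0.668 FPKM), MAFF (0.345 FPKM) and MAFK (0.114 FPKM) were below. The following were chosen after their values were seen. NFE2L2, which encodes NRF2, stood at 30.4 FPKM and KEAP1 at 4.25 FPKM. NQO1 was listed at 0. HMOX1 was also listed at 0, in a stretch of 474 rows at the end of the table that are all at 0, so nothing is said of its expression. It is nonetheless among the 19 genes counted above, on the side below 1 FPKM.

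**Figure D5:**
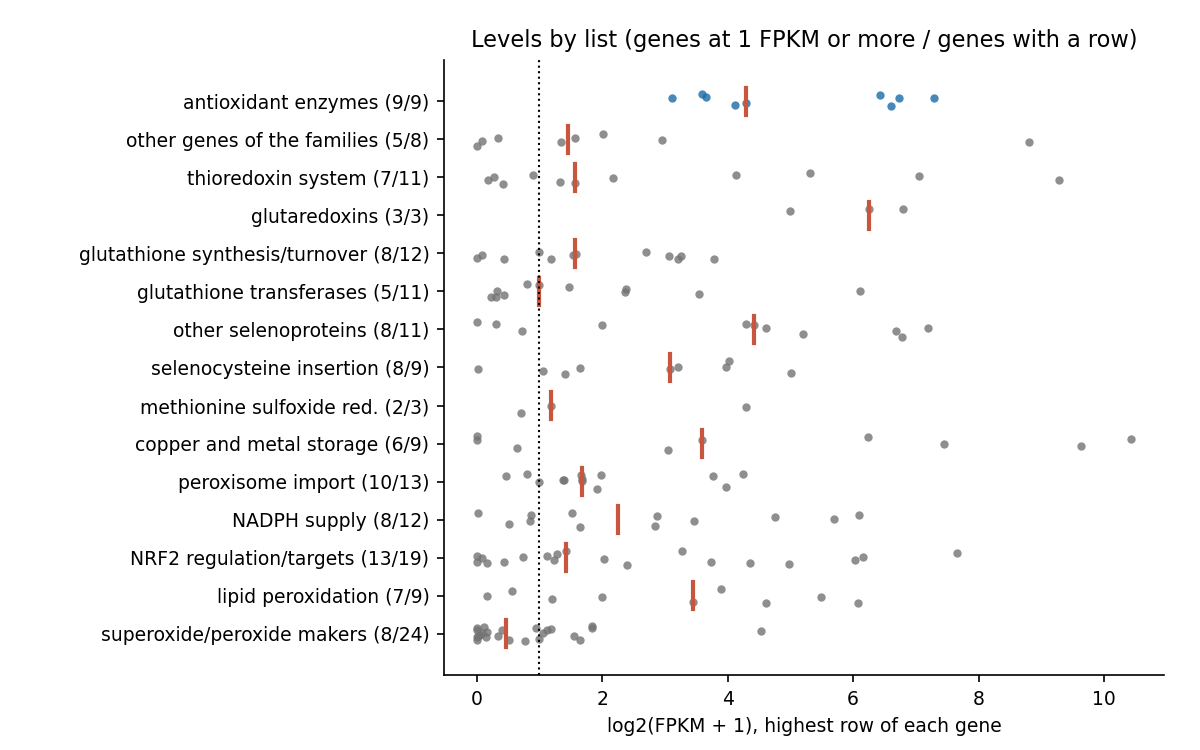
log2(FPKM + 1) of the highest row for each gene of the 9 enzymes and of 14 lists of partner genes, with the list median as a red bar and 1 FPKM as a dotted line. Counts give genes at 1 FPKM or more of genes with a row. The lists of superoxide and peroxide makers (8 of 24, the isomerase P4HB included) and of glutathione transferases (5 of 11) have medians below 1 FPKM by the highest row. With rows summed the transferase median is 1.42 FPKM. All genes of the table had a median of 0.916 FPKM, and 48.8% of them reached 1 FPKM.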

How the data were processed

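Per the labels' protocols, RNA libraries were made with Smart-seq2. The deposited table gives FPKM values by the authors, per the file headers, with 37571 Ensembl transcript rows and 1 column into which 4 libraries were merged. Neither labels nor headers say whether reads or values were merged, or which aligner, quantifier and annotation served. Among tools for all data types, the submitters' processing notes list TopHat2 2.1.1 and Cufflinks 2.2.1, and the pig build susScr11. Values between 0 and 1e-06 FPKM (4534 rows) point to a fitted assignment of reads. Only FPKM values are given, so depth is unknown. FPKM depends on the transcript lengths used.

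Rows were joined by gene name with pandas 2.3.3 in Python 3.11.15. A gene's value was its highest row, and log2 values used a pseudocount of 1. No gene was filtered out of the table, and some partner genes are not reported here. Percentiles are over all 15877 gene names. The functions were tested on simulated data with planted values. With 1 merged column, neither tests nor a replicate SD could be computed. The genes and the lists were chosen with earlier results of these data known. All genes of the family, thioredoxin, glutaredoxin and glutathione lists are named, and of other lists the 3 highest and up to 3 on the minority side of 1 FPKM. No protein, promoter or genome coordinates of pig were used here.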

Additional observations from a re-analysis of the deposited data

How the results depend on the processing

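All values come from 1 merged column, so leaving out each replicate could not be run. No paired analysis was possible because the 4 libraries share that column. All 9 genes stood at 1 FPKM or more with rows summed, with the mean of rows, at 0.5 and 5 FPKM, at 1 TPM and without the trailing zeros; the count was 8 at 10 FPKM and 2 at 100 FPKM. The share of all genes was 50.6% with rows summed, 41.8% with the mean of rows, 56.5% at 0.5 FPKM, 28.4% at 5 FPKM, 20.2% at 10 FPKM, 3.14% at 100 FPKM, 61.3% at 1 TPM and 49.5% without the trailing zeros. The median percentile of the 9 genes, 86.6 among all genes, was 83.8 among genes above 0, 72.5 among genes at 1 FPKM or more, 86.4 without the trailing zeros, 89.9 with rows summed and 88.9 with the mean of rows. Their median exceeded that of all genes by 3.36 on the log2(FPKM + 1) scale, 4.21 with a pseudocount of 0.1, 4.33 with 0.01, and 2.36 among genes at 0.1 FPKM or more.

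With rows summed PRDX2 came to 14.9 FPKM, PRDX6 to 164 FPKM, SOD2 to 12.6 FPKM, CAT to 20.5 FPKM and GPX4 to 32.6 FPKM. With the mean of rows PRDX2 was 3.71 FPKM, PRDX6 82.2 FPKM, SOD2 4.21 FPKM and CAT 6.85 FPKM. PRDX6, with a low second row, then fell behind PRDX5, SOD1 and PRDX3. Summed rows kept the place of 4 genes and gave 287 FPKM for the cytosol, 98.2 FPKM for mitochondria, 20.5 FPKM for the peroxisome and 138 FPKM for several sites.

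At 5 FPKM the counts fell to 2 for other family genes, 4 for thioredoxin, 5 for glutathione and 2 for transferases. They fell to 5 for selenocysteine insertion, 1 for sulfoxide reductases, 3 for peroxisome, 1 for oxidases and 7 for NRF2. Blood and fibroblast markers fell to 0. All these counts moved by over 1.5 times. Smaller falls were to 6 for NADPH supply, 5 for lipid peroxidation, 7 for other selenoproteins, 8 for embryo markers and 6 for oocyte markers. The counts for glutaredoxins, copper and metal storage, and cumulus markers stayed the same. Cumulus markers numbered 2 with rows summed and at 0.5 FPKM, where fibroblast markers numbered 3. A higher threshold admits fewer genes by construction, and 28.4% of all genes stood at 5 FPKM or more.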

Other observations

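The list of enzymes that make superoxide or hydrogen peroxide also held P4HB, a protein disulfide isomerase and not an oxidase. Of the 24 genes reported here, P4HB included, 8 were at 1 FPKM or more (33.3%), where all genes stood at 48.8%. The list median was 0.380 FPKM. The highest were genes of oxidative protein folding in the endoplasmic reticulum, the site of PRDX4. P4HB, at 22.2 FPKM, was the only gene of the list at 10 FPKM or more. The oxidases ERO1A and ERO1B, which recharge such isomerases and release peroxide, stood at 2.59 and 2.57 FPKM.

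Genes of copper delivery and metal storage held some of the highest levels near these enzymes. FTL, the ferritin light chain, stood at 1384 FPKM and COX17, the copper chaperone of cytochrome oxidase, at 795 FPKM, while the mitochondrial ferritin FTMT and the metallothionein MT3 were listed at 0. Of this list 6 of 9 genes reached 1 FPKM (66.7%), against 48.8% of all genes. Glutathione transferases did so in 5 of the 11 genes reported here (45.5%), or in 6 with rows summed, where all genes stood at 50.6%. Their median was 0.987 FPKM, or 1.42 FPKM summed. The highest were GSTM3 at 68.4 FPKM, GSTA4 at 10.6 FPKM and GSTK1 at 4.22 FPKM. Genes of lipid peroxidation around GPX4 reached 1 FPKM in 7 of 9 cases (77.8%). The transferrin receptor gene TFRC stood at 66.7 FPKM (152 FPKM summed) and the ferritin receptor gene NCOA4 at 43.8 FPKM (79.9 FPKM summed). GCH1, of tetrahydrobiopterin synthesis, stood at 23.4 FPKM. ALOX5 (0.471 FPKM) and AIFM2 (0.119 FPKM, 0.209 FPKM summed) were below.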
